A study of Canis lupus familiaris with 6 samples.

Results

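The genes described here are 39 genes of G2 and mitosis, the cell cycle phases in which replicated chromosomes are prepared for and pulled into the daughter cells. They were chosen by symbol from textbook roles, with earlier results of these data known. All 39 were found among the 41401 gene symbols of the series, with 1 value per symbol and library. RNA was sequenced from MDCK cells, an epithelial line from dog kidney, for work on cell death through NF-κB when cells lose magnesium. 3 lines were compared: clone 1 (D7) and clone 2 (F22), both labelled PRL2-/-; PRL1+/-, and the wild-type (WT) line. Each line received either PRL1-siRNA, a short RNA that lowers the PRL1 transcript, or control siRNA, and RNA was taken 18 hours after a second transfection. The series thus holds 6 libraries, 1 for each line and treatment, and the mutant clones that received control siRNA carry the same alleles as those that received PRL1-siRNA. Each mutant line is a single clone, and how its alleles were changed is not stated in the labels. PRL1 (gene PTP4A1) and PRL2 (gene PTP4A2) are phosphatases known to bind CNNM proteins, which carry magnesium across membranes.

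Entry into mitosis is driven by CDK1 bound to cyclin A or B, and exit follows when the anaphase-promoting complex (APC/C), a ubiquitin ligase, marks cyclin B and securin for destruction. Most genes of these phases are transcribed in a wave from late S phase to mitosis by FOXM1 and by B-MYB (gene MYBL2) with the MuvB complex, and are kept silent in resting cells by the DREAM complex. In a cell population their transcripts are therefore read as a measure of cycling. In bulk RNA, fewer cells in G2 and mitosis and less RNA of these genes per cell cannot be told apart.

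The values are FPKM (mapped fragments scaled to transcript length and library size), so levels of different genes can be compared on 1 scale. Between 22961 and 23964 symbols were above 0 in a library. Absolute depth is unknown. Relative depth, read from the spacing of low values and set to 1 in the wild-type library with control siRNA, was 0.766, 0.866 and 0.861 after PRL1-siRNA in clone 1, clone 2 and wild type, against 0.853 and 0.914 after control siRNA in clone 1 and clone 2. The knockdown library was thus the shallower one in all 3 lines, and the part of depth in the results was not tested. The targeted transcript PTP4A1 was at 37.8, 37.8 and 33.1 FPKM after PRL1-siRNA in clone 1, clone 2 and wild type, against 61.7, 69.9 and 63.5 FPKM after control siRNA (log2 fold change -0.83 ± 0.053 (SE), limma, adjusted p = 0.00127). Its paralogue PTP4A2 was at 69.1, 48.3 and 59.0 FPKM after PRL1-siRNA in clone 1, clone 2 and wild type, against 80.4, 56.7 and 72.7 FPKM after control siRNA, lower in all 3 lines (log2 fold change -0.25 ± 0.036, limma, adjusted p = 0.00572). These levels do not check the labelled allele. All 11 epithelial markers examined were at a mean of 1 FPKM or more, whereas the leukocyte markers PTPRC and CD3E were at 0 in every library. The summed level was 6.36 to 8.95 FPKM over 6 leukocyte markers, 0.147 to 0.474 FPKM over 6 fibroblast markers and 0.760 to 1.25 FPKM over 5 endothelial markers. Summed over the epithelial markers, the level was 1649, 1865 and 1276 FPKM after PRL1-siRNA in clone 1, clone 2 and wild type, against 1792, 1966 and 1300 FPKM after control siRNA, and the fibroblast sum was higher after PRL1-siRNA in all 3 lines. The part of either in the results was not tested.

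All 39 genes had a lower level after PRL1-siRNA than after control siRNA in every line. Their summed level was 1414, 1193 and 1208 FPKM after PRL1-siRNA in clone 1, clone 2 and wild type, against 1702, 1533 and 1524 FPKM after control siRNA, which is 17.0%, 22.1% and 20.7% less. Tested over the 3 lines, 33 of the 39 fell, 0 rose and 6 did not pass, with MYBL2, ANLN, UBE2C, NUF2 and CCNA2 showing the largest falls. The median log2 fold change of the 39 genes was -0.30, against -0.01 over all 12125 genes tested. The test was limma on log2(FPKM + 1) with the line as a term of the model (n = 3 lines), on every gene that averaged 1 FPKM or more, with Benjamini-Hochberg adjustment over all of them and a threshold of 0.05. In this fit 21.7% of all genes fell and 17.6% rose. "Fell" and "rose" below refer to it. Limma without the line term called 0 of the 39 and 0 of all 12125 genes. In that fit 22 of the 39, all lower, and 3407 of all genes, in either direction, had an unadjusted p under 0.05. The smallest adjusted p of the 39 was 0.0714. With the line term but no filter on low values, 7 of the 39 fell (ANLN, ECT2, NUF2, CCNA2, UBE2C, MKI67 and KIF23), against 2.61% of all genes.

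A level lower in all 3 lines was found for 35.8% of all genes, and for 39 of these 39. In 21 of the 39, all 3 knockdown libraries were below all 3 control libraries, a separation found in 16.2% of all genes. The 3 libraries of a treatment come from different lines, and separate cultures within a line are not described. The p-values therefore rest on how the knockdown difference varied between these lines, with each variance moderated toward that of genes of similar level. They do not measure the spread between cultures of a line.

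**Figure D1:**
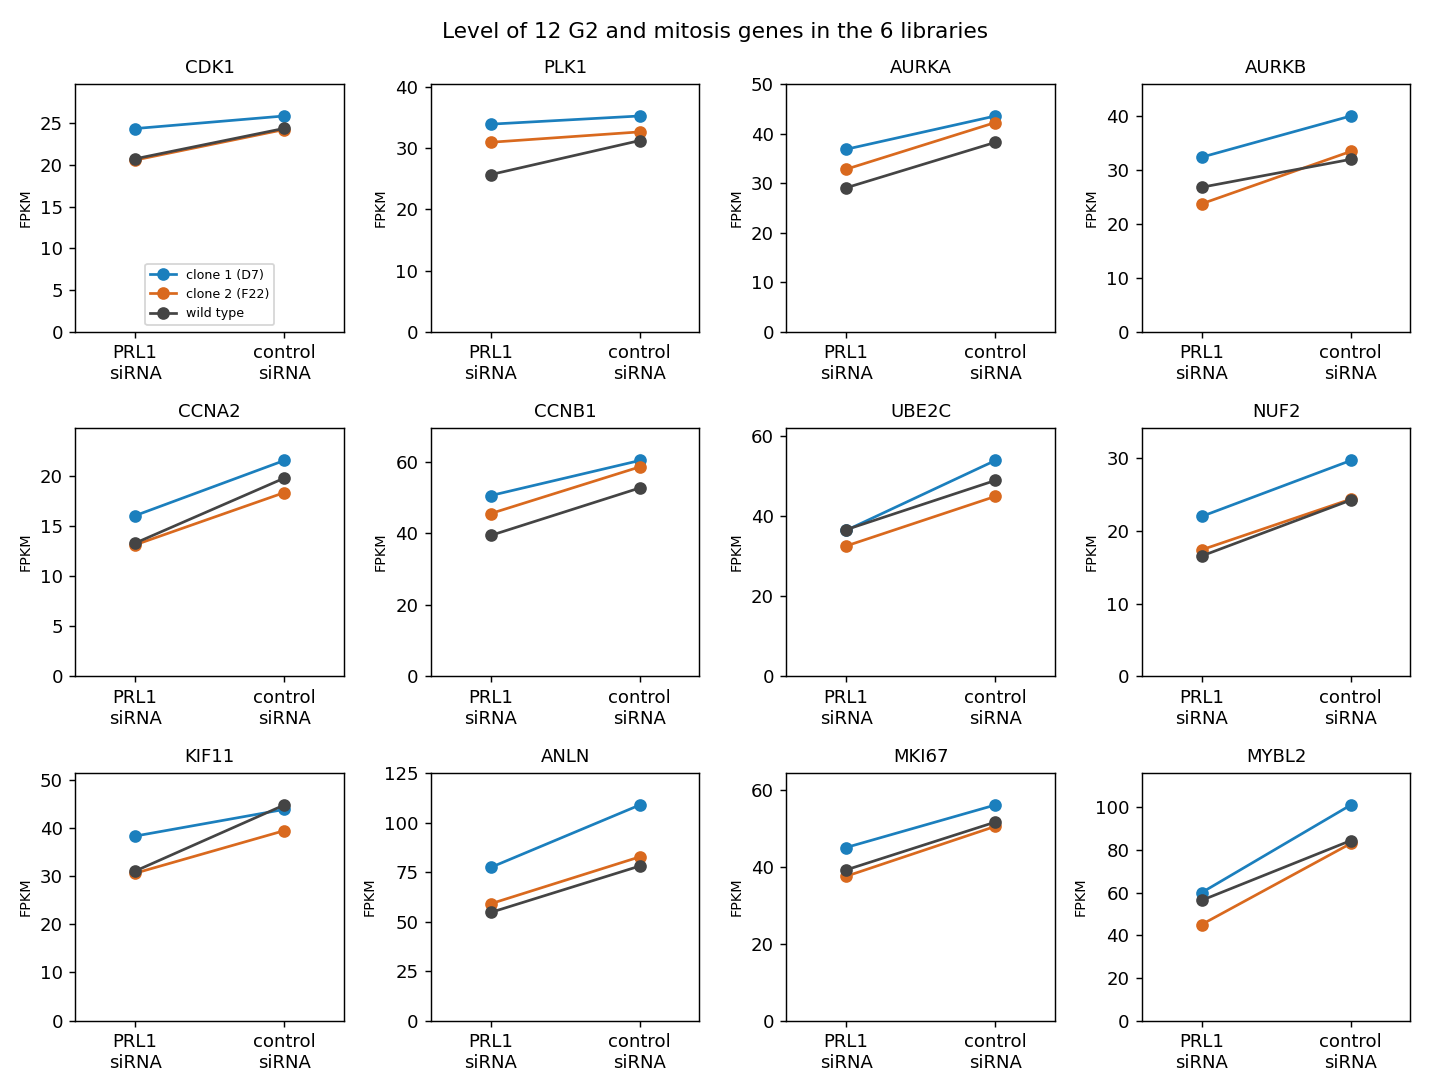
Level in FPKM (vertical axis, from 0) of 12 of the 39 genes after PRL1 siRNA (left) and control siRNA (right), 1 library per point, with lines joining the libraries of clone 1, clone 2 and wild type. Every joined pair is lower after PRL1 siRNA, by little for PLK1 in the clones (33.9 and 31.0 against 35.3 and 32.7 FPKM) and by most for MYBL2 (60.0 and 45.0 against 101 and 83.0 FPKM in clone 1 and clone 2).

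Of the 7 mitotic kinases, 5 fell and 2 did not pass, with a median log2 fold change of -0.20, against -0.30 for the other 32 genes, of which 28 fell. The Aurora kinases showed the largest falls among them. AURKA, which matures centrosomes and builds the spindle poles, was at 36.9, 32.8 and 29.1 FPKM after PRL1-siRNA in clone 1, clone 2 and wild type, against 43.6, 42.3 and 38.3 FPKM after control siRNA. All knockdown libraries of AURKA were below all control libraries, and it fell by 0.33 ± 0.044 log2 units (SE, limma, adjusted p = 0.00453). AURKB, the kinase of the chromosomal passenger complex that corrects faulty chromosome attachments, was at 32.4, 23.7 and 26.8 FPKM after PRL1-siRNA, against 40.1, 33.5 and 32.0 FPKM after control siRNA in the same order of lines. It fell by 0.34 ± 0.054 (adjusted p = 0.00739), although the knockdown library of clone 1 was above the control library of wild type.

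CDK1, the kinase that drives entry into mitosis, was at 24.4, 20.6 and 20.8 FPKM after PRL1-siRNA in clone 1, clone 2 and wild type, against 25.9, 24.3 and 24.4 FPKM after control siRNA. The groups overlapped by a narrow margin, with the knockdown library of clone 1 between the control libraries, and CDK1 fell by 0.18 ± 0.045 (limma, adjusted p = 0.0287). The spindle checkpoint kinase BUB1 was at 42.1, 37.8 and 34.1 FPKM after PRL1-siRNA, against 47.2, 46.5 and 41.9 FPKM after control siRNA, and fell by 0.25 ± 0.042 (adjusted p = 0.00898). TTK, the kinase (also named MPS1) that starts checkpoint signalling, was at 11.2, 8.79 and 9.14 FPKM after PRL1-siRNA, against 11.9, 10.5 and 11.4 FPKM after control siRNA. TTK fell by 0.20 ± 0.056 (adjusted p = 0.0393), with the clone 1 knockdown library above the clone 2 control library.

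The 2 kinase genes that did not pass were PLK1 and BUB1B. PLK1, which acts at centrosomes, kinetochores and the cleavage site, was at 33.9, 31.0 and 25.7 FPKM after PRL1-siRNA in clone 1, clone 2 and wild type, against 35.3, 32.7 and 31.3 FPKM after control siRNA. Its difference was -0.054 in clone 1, -0.075 in clone 2 and -0.27 in wild type, and the fit gave -0.13 ± 0.054 (adjusted p = 0.101). BUB1B, which encodes the checkpoint protein BUBR1, was at 30.6, 28.3 and 26.4 FPKM after PRL1-siRNA, against 31.2, 30.5 and 29.2 FPKM after control siRNA. It had the smallest fold change of the 39 genes, -0.087 ± 0.040 (adjusted p = 0.135). The calls of CDK1 and TTK were lost without any 1 of the 3 line pairs and after quantile normalization, that of TTK also after median-ratio scaling and without an intensity trend, and that of BUB1 without the clone 2 pair.

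All 5 genes of the cyclin group fell, with a median of -0.34. CCNA2, which encodes the cyclin A of somatic cells, was at 16.1, 13.1 and 13.3 FPKM after PRL1-siRNA in clone 1, clone 2 and wild type, against 21.6, 18.4 and 19.8 FPKM after control siRNA. The 2 sets did not overlap, and CCNA2 fell by 0.47 ± 0.044 (limma, adjusted p = 0.00198). CCNB1, the cyclin B whose destruction lets cells leave mitosis, was at 50.5, 45.5 and 39.4 FPKM after PRL1-siRNA, against 60.4, 58.6 and 52.7 FPKM after control siRNA, again without overlap. It fell by 0.34 ± 0.043 (adjusted p = 0.00406), and the related CCNB2 by 0.30 ± 0.042 (adjusted p = 0.00492). CCNF, a cyclin that binds no CDK but serves in a ubiquitin ligase, was at 20.8, 16.2 and 21.4 FPKM after PRL1-siRNA, against 28.5, 23.9 and 25.7 FPKM after control siRNA, and fell by 0.41 ± 0.061 (adjusted p = 0.00608). CDC25C, the phosphatase that activates CDK1, was the lowest of the group at 4.16 to 6.82 FPKM and fell by 0.27 ± 0.058 (adjusted p = 0.0166). The CCNF call was lost without the clone 1 pair and the CDC25C call without either clone pair.

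All 3 genes of the APC/C and securin group fell, and in each of them all knockdown libraries were below all control libraries. UBE2C, the ubiquitin-conjugating enzyme of the complex, was at 36.4, 32.5 and 36.6 FPKM after PRL1-siRNA in clone 1, clone 2 and wild type, against 53.9, 44.9 and 48.9 FPKM after control siRNA. It fell by 0.47 ± 0.042 (limma, adjusted p = 0.00183), and it was 1 of the 2 genes of the 39 whose difference was larger in clone 1 (-0.55) than in the other lines. The other was CDC25C (-0.39 in clone 1). PTTG1, which encodes securin, the inhibitor of separase, was at 79.7, 69.1 and 73.2 FPKM after PRL1-siRNA, against 94.3, 88.4 and 88.3 FPKM after control siRNA, and fell by 0.29 ± 0.038 (adjusted p = 0.00440). CDC20, the activator that the spindle checkpoint holds back, was at 63.9, 53.5 and 52.8 FPKM after PRL1-siRNA, against 73.0, 68.2 and 64.7 FPKM after control siRNA, and fell by 0.27 ± 0.043 (adjusted p = 0.00690). Subunits and partner enzymes of the APC/C itself are a separate list with a median of -0.06. Of its 16 genes, 6 fell (against 21.7% of all genes) and 0 rose (17.6%). The count that fell was 3 after quantile normalization (20% of all genes fell there) and after median-ratio scaling (19%). It was also 3 without an intensity trend (20.5%) and without the wild-type pair (19%). It was 2 without the clone 2 pair (10.9%) and 0 without the clone 1 pair (7.92%). ANAPC10, a substrate-binding subunit, fell by 0.48 ± 0.072 (adjusted p = 0.00616). The chain-elongating enzyme UBE2S fell by 0.33 ± 0.055 (adjusted p = 0.00872). ANAPC1, the largest scaffold subunit, fell by 0.26 ± 0.048 (adjusted p = 0.0114).

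All 6 kinetochore and centromere genes fell, with a median of -0.24. The largest fall was in NUF2, a subunit of the NDC80 complex that binds spindle microtubules, at 21.996, 17.4 and 16.5 FPKM after PRL1-siRNA in clone 1, clone 2 and wild type, against 29.7, 24.4 and 24.2 FPKM after control siRNA. NUF2 fell by 0.47 ± 0.040 (limma, adjusted p = 0.00174) and its 2 sets of libraries did not overlap. Its partner in the complex, NDC80, was at 17.4, 14.1 and 13.4 FPKM after PRL1-siRNA, against 19.3, 15.9 and 18.4 FPKM after control siRNA. NDC80 fell by 0.25 ± 0.067 (adjusted p = 0.0350), with differences of -0.14 in clone 1, -0.16 in clone 2 and -0.43 in wild type. CENPF, a large protein of the outer kinetochore, was at 24.6, 22.2 and 19.4 FPKM after PRL1-siRNA, against 29.6, 27.9 and 26.4 FPKM after control siRNA, without overlap. It fell by 0.33 ± 0.046 (adjusted p = 0.00488). CENPA, the histone H3 variant that marks centromeres, fell by 0.24 ± 0.050, and BIRC5 (survivin, of the passenger complex) by 0.16 ± 0.040 (adjusted p = 0.0164 and 0.0247). CENPE, a kinetochore motor, was the called gene nearest to the threshold, at -0.21 ± 0.064 (adjusted p = 0.0468). The calls of CENPE and NDC80 were lost without any 1 of the line pairs, after quantile normalization and without an intensity trend, that of CENPE also after median-ratio scaling, and those of CENPA and BIRC5 without either clone pair.

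Among 8 spindle motors and microtubule proteins, 5 fell and 3 did not pass, with a median of -0.26. KIF11, the motor that pushes spindle poles apart, was at 38.3, 30.6 and 31.1 FPKM after PRL1-siRNA in clone 1, clone 2 and wild type, against 43.9, 39.5 and 44.8 FPKM after control siRNA. It fell by 0.35 ± 0.066 (limma, adjusted p = 0.0112) with no overlap between the treatments, and its difference was -0.19 in clone 1 and -0.51 in wild type. DLGAP5, a stabiliser of kinetochore fibres, was at 26.0, 23.5 and 18.7 FPKM after PRL1-siRNA, against 29.9, 31.5 and 24.5 FPKM after control siRNA. It fell by 0.32 ± 0.053 (adjusted p = 0.00793), although the knockdown library of clone 1 was above the control library of wild type. TPX2, which activates AURKA on the spindle, was at 21.5, 18.6 and 17.9 FPKM after PRL1-siRNA, against 25.8, 23.0 and 23.3 FPKM after control siRNA, without overlap, and fell by 0.30 ± 0.041 (adjusted p = 0.00463). The chromosome-arm motor KIF4A fell by 0.30 ± 0.045 and the microtubule-shortening KIF2C by 0.22 ± 0.042 (adjusted p = 0.00615 and 0.0116). The motor KIF18A (-0.16 ± 0.053), the microtubule-bundling NUSAP1 (-0.13 ± 0.048) and the spindle and hyaluronan-binding protein HMMR (-0.11 ± 0.045) did not pass (adjusted p = 0.0582, 0.0762 and 0.0985). The KIF11 call was lost without the clone 2 pair and the KIF2C call without the clone 1 pair, while KIF18A passed after quantile normalization (adjusted p = 0.0454) and without an intensity trend (adjusted p = 0.0484), within a range of 0.0454 to 0.436 over its alternatives.

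Of 6 cytokinesis genes, 5 fell and 1 did not pass, with a median of -0.35. ANLN, which encodes anillin, the scaffold of the cleavage ring, was at 77.5, 59.1 and 54.7 FPKM after PRL1-siRNA in clone 1, clone 2 and wild type, against 109, 82.8 and 78.2 FPKM after control siRNA. Its differences of -0.49, -0.48 and -0.51 hardly varied between the lines, and it fell by 0.49 ± 0.033 (limma, adjusted p = 0.00129). ECT2, the exchange factor that activates RhoA at the division plane, was at 42.7, 37.7 and 38.8 FPKM after PRL1-siRNA, against 56.2, 52.0 and 52.8 FPKM after control siRNA, without overlap, and fell by 0.43 ± 0.035 (adjusted p = 0.00165). KIF23, the motor of the centralspindlin complex, was at 42.2, 34.6 and 33.5 FPKM after PRL1-siRNA, against 53.0, 48.1 and 43.7 FPKM after control siRNA, also without overlap. It fell by 0.39 ± 0.041 (adjusted p = 0.00252). RACGAP1, the other subunit of centralspindlin, fell by 0.21 ± 0.043, and PRC1, which bundles midzone microtubules, by 0.30 ± 0.041 (adjusted p = 0.0148 and 0.00448). The midzone motor KIF20A, at 23.6, 21.3 and 19.1 FPKM after PRL1-siRNA and 24.0, 25.0 and 21.7 FPKM after control siRNA, did not pass (-0.14 ± 0.050, adjusted p = 0.0770). The RACGAP1 call was lost without either clone pair.

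The 2 genes often used to mark cycling cells both fell. MKI67, which encodes the Ki-67 antigen coating mitotic chromosomes, was at 45.0, 37.6 and 39.2 FPKM after PRL1-siRNA in clone 1, clone 2 and wild type, against 56.1, 50.5 and 51.7 FPKM after control siRNA. It fell by 0.37 ± 0.039 (limma, adjusted p = 0.00235) and the treatments did not overlap. TOP2A, the topoisomerase that untangles sister chromosomes, was at 78.8, 61.8 and 67.1 FPKM after PRL1-siRNA, against 88.0, 75.4 and 84.2 FPKM after control siRNA. It fell by 0.25 ± 0.044 (adjusted p = 0.00936), a call lost without the clone 2 pair, and the knockdown library of clone 1 was above the control library of clone 2.

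Both transcription factors of the mitotic wave fell. MYBL2 had the largest fall of the 39 genes, and its level was 60.0, 45.0 and 56.3 FPKM after PRL1-siRNA in clone 1, clone 2 and wild type, against 101, 83.0 and 84.4 FPKM after control siRNA. It fell by 0.73 ± 0.060 (limma, adjusted p = 0.00165), with differences of -0.74, -0.87 and -0.57, and 97 of the 12125 genes had a more negative fold change. FOXM1 was at 8.83, 6.61 and 9.30 FPKM after PRL1-siRNA, against 11.1, 9.86 and 11.1 FPKM after control siRNA, without overlap. It fell by 0.35 ± 0.065 (adjusted p = 0.0114), a call lost without the clone 1 pair. In both factors the difference was largest in clone 2 and smallest in wild type. Over the 39 genes the largest difference was in clone 2 for 19, in wild type for 18 and in clone 1 for 2.

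**Figure D2:**
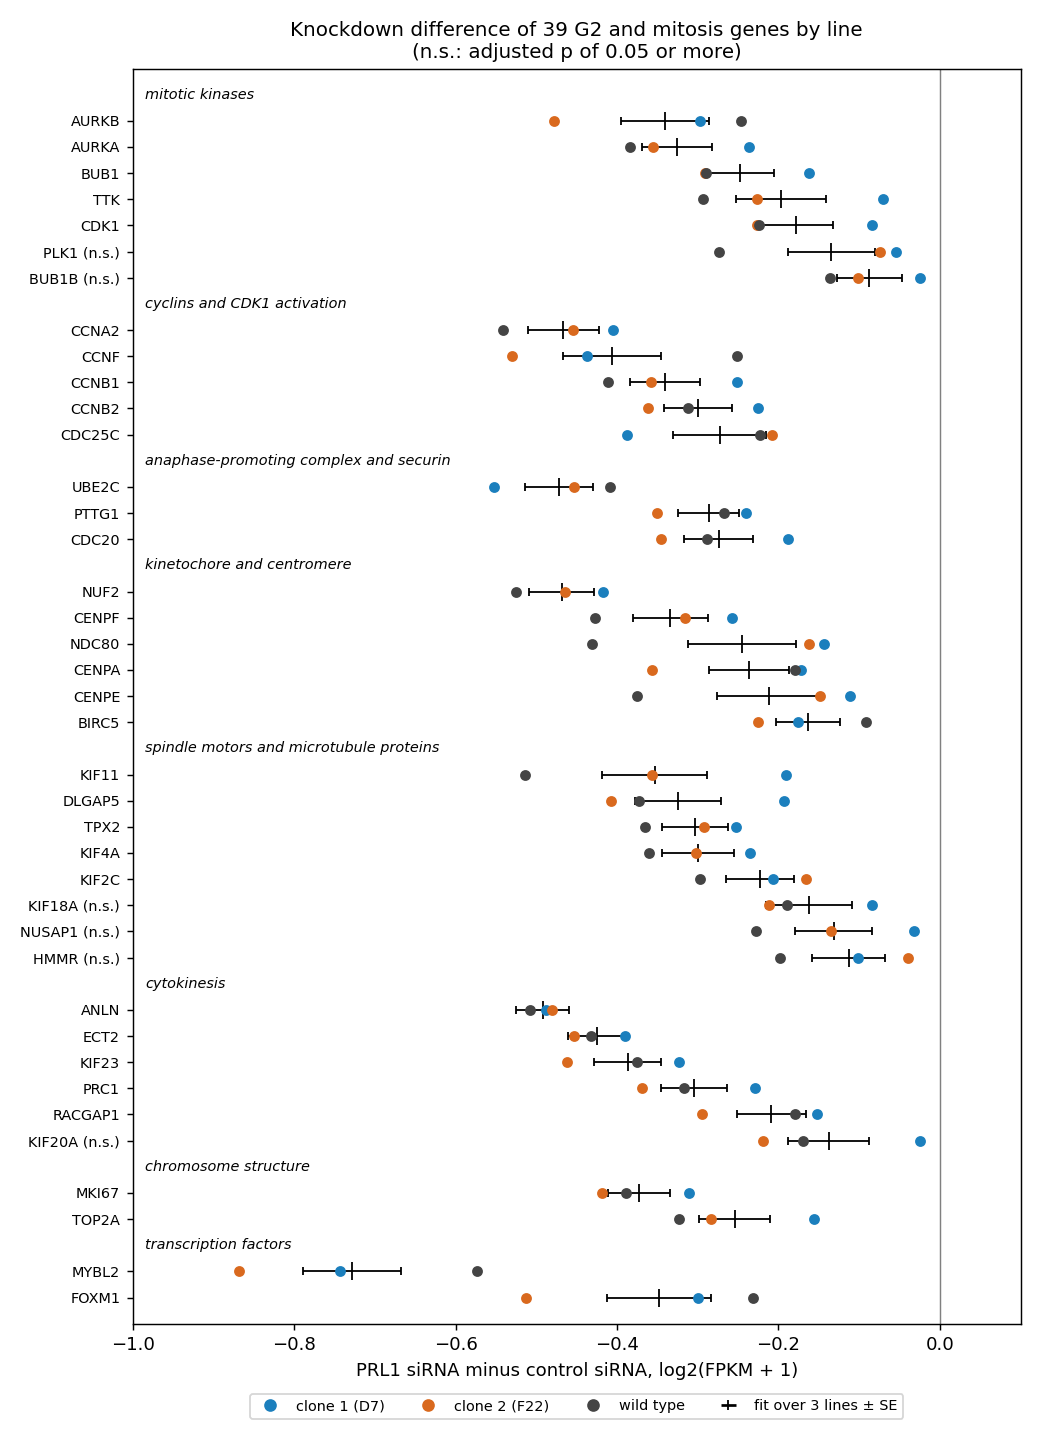
Difference in log2(FPKM + 1) between PRL1 siRNA and control siRNA (horizontal axis) for each of the 39 genes, grouped by role, as points for clone 1, clone 2 and wild type; the black tick and bar are the fit over the 3 lines with its SE, and n.s. marks the 6 genes that did not pass. Every point is left of 0, MYBL2 lies furthest left, and the point of clone 1 is nearest to 0 in 29 of the 39 genes.

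The size of the difference varied between lines. The median of the 39 genes was -0.23 in clone 1, -0.35 in clone 2 and -0.31 in wild type, and single genes spanned -0.74 to -0.024 (clone 1), -0.87 to -0.040 (clone 2) and -0.57 to -0.091 (wild type). A level at least 1.2-fold lower on the FPKM + 1 scale was found for 12 of the 39 genes in clone 1 (12.9% of all genes), 26 in clone 2 (14.1%) and 26 in wild type (13.0%), in each case from 1 library against 1. In all 3 lines at once it was found for 8 of the 39 (6.40% of all genes), which were ANLN, CCNA2, ECT2, KIF23, MKI67, MYBL2, NUF2 and UBE2C. Clone 1 had the least negative difference of the 3 lines in 29 of the 39 genes, against 32.4% of all genes. Both clones had a less negative difference than wild type in 18 of the 39 (36.5% of all genes). The clones and wild type were compared by the interaction of genotype and knockdown, which limma called for 0 of the 39 genes and 0% of all genes. An unadjusted p under 0.05 was found for 0 of the 39 and 136 of all genes. This model has no line term, although libraries of the same clone deviated together. With the line as a term, a fit added after the data were seen that leaves 1 residual degree of freedom, limma called 0 of the 39 (smallest adjusted p = 0.471) and 1 of all genes (0.00825%), and 5 of the 39 and 1228 of all genes had an unadjusted p under 0.05. Of these 5, NDC80, PLK1 and CENPE had a less negative difference in the clones than in wild type, and CCNF and MYBL2 a more negative one. With 1 pair of libraries a line, a difference between single lines was not tested. Across the 39 genes, which share the same libraries, Pearson's r between log2 mean FPKM and log2 fold change was -0.24.

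A wider list of other G2 and mitosis genes, drawn up by role with earlier results of these data known, was read from the same fit. Of its 80 tested genes, 56 fell (against 21.7% of all genes), 1 rose (17.6%) and 23 did not pass, with a median of -0.23. LMNB1, which encodes the lamin B1 of the nuclear envelope, was at 149, 129 and 129.8 FPKM after PRL1-siRNA in clone 1, clone 2 and wild type, against 213, 199 and 193 FPKM after control siRNA, and fell by 0.57 ± 0.036 (limma, adjusted p = 0.00127). PLK4, the kinase that starts centriole duplication, fell by 0.55 ± 0.039, and CENPO, of the inner kinetochore, by 0.51 ± 0.049 (adjusted p = 0.00147 and 0.00203). The gene that rose was WEE1, the kinase that holds CDK1 inactive, at 34.4, 38.3 and 33.9 FPKM after PRL1-siRNA and 32.2, 35.4 and 29.5 FPKM after control siRNA, a log2 fold change of 0.13 ± 0.039 (adjusted p = 0.0450). The treatments overlapped in WEE1, and its call was lost without any 1 of the 3 pairs and without an intensity trend (adjusted p up to 0.309 over its alternatives). Without the clone 1 pair 34 genes of the wider list fell, where 7.92% of all genes fell, and without the clone 2 pair 32, where 10.9% of all genes fell.

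Of 45 genes of S phase and replication, 31 fell (against 21.7% of all genes) and 0 rose (17.6%), with a median of -0.20. Of the 45, 15 fell without the clone 1 pair (7.92% of all genes) and 12 without the clone 2 pair (10.9%). CDC6, which loads the replicative helicase, was at 24.9, 20.7 and 22.3 FPKM after PRL1-siRNA in clone 1, clone 2 and wild type, against 44.2, 37.3 and 46.8 FPKM after control siRNA, and fell by 0.89 ± 0.057 (limma, adjusted p = 0.00127), more than any of the 39 genes. The helicase subunit MCM4 fell by 0.47 ± 0.045 and the replication factor MCM10 by 0.42 ± 0.043 (adjusted p = 0.00205 and 0.00225). Of 21 genes of the DREAM complex and of the E2F, RB and NF-Y families, 13 fell (against 21.7% of all genes) and 0 rose (17.6%). Their median was -0.19, and 2 fell without the clone 1 pair (7.92% of all genes) and 4 without the clone 2 pair (10.9%). The 13 included the activator E2F3 (-0.46 ± 0.051), the late-acting repressor E2F8 (-0.44 ± 0.074) and the MuvB subunit LIN54 (-0.27 ± 0.047, adjusted p = 0.00276, 0.00863 and 0.00966). These lists were not tested against the 39 genes.

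Genes of the step before S phase went both ways: of 13 tested G1 cyclins, CDKs and CDK inhibitors, 5 fell, 2 rose and 6 did not pass. Their median was -0.04, and over all genes 21.7% fell and 17.6% rose. The genes that rose were inhibitors, CDKN2B and CDKN1A. The inhibitors CDKN1B, CDKN2C and CDKN2D did not pass (limma, adjusted p = 0.184, 0.188 and 0.382). CDKN2B, which encodes the CDK4 and CDK6 inhibitor p15, was at 20.6, 16.4 and 30.4 FPKM after PRL1-siRNA in clone 1, clone 2 and wild type, against 10.3, 8.80 and 9.13 FPKM after control siRNA. All knockdown libraries of CDKN2B were above all control libraries, and it rose by 1.13 ± 0.16 (limma, adjusted p = 0.00478). CDKN1A, which encodes p21, was at 71.9, 123 and 49.99 FPKM after PRL1-siRNA, against 48.1, 113 and 35.9 FPKM after control siRNA, and rose by 0.38 ± 0.089 (adjusted p = 0.0213). The libraries of clone 2 were the highest in CDKN1A under either siRNA, and the treatments overlapped. The CDKN1A call was lost without the clone 1 pair and without the wild-type pair. CCND2, a D-type cyclin, fell by 0.48 ± 0.046, CCNE2, an E-type cyclin, by 0.37 ± 0.074 and CDK4, the partner kinase of D-type cyclins, by 0.28 ± 0.042 (adjusted p = 0.00199, 0.0133 and 0.00613). Without the clone 1 pair 1 of the 13 genes fell (7.92% of all genes) and without the clone 2 pair 2 (10.9%).

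**Figure D3:**
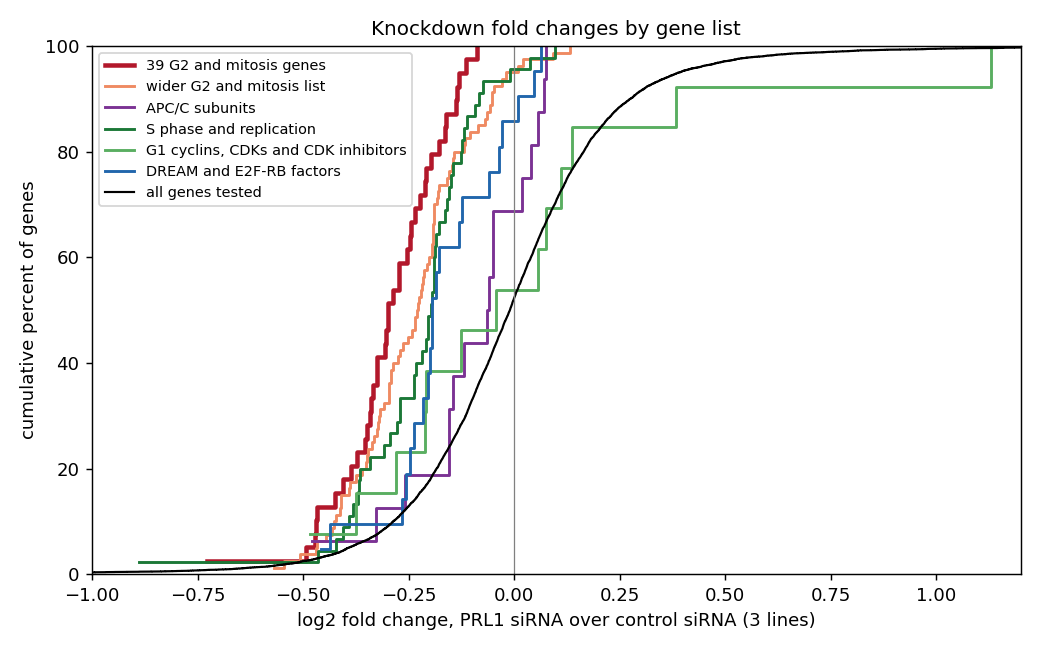
Cumulative percent of genes (vertical axis) by log2 fold change of PRL1 siRNA over control siRNA in the fit over 3 lines (horizontal axis, cropped at -1 and 1.2) for the 39 G2 and mitosis genes, the 5 other lists and all 12125 genes tested. The curve of the 39 genes lies wholly left of 0 with a median of -0.30, and the curve of all genes crosses 50 percent near 0.

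Clones and wild type were compared under each siRNA to ask whether the level of these genes depends on the PRL genotype. Clone 1 was mostly above wild type and clone 2 was not. Under PRL1-siRNA the median difference from wild type over the 39 genes was 0.25 in clone 1 and -0.01 in clone 2. Over all genes it was 0.045 and 0.016. Both clones were above wild type in 19 of the 39 genes (42.9% of all genes) and below it in 5 (31.1%). Under control siRNA the medians of the 39 were 0.14 in clone 1 and -0.02 in clone 2, against 0.045 and 0.023 over all genes. Both clones were then above wild type in 17 of the 39 genes (43.6% of all genes) and below it in 4 (29.9%). The control library of clone 1 was the highest of all 6 in 33 of the 39 genes, against 24.0% of all genes. The knockdown library of clone 1 was above the wild-type control library in 8 of the 39 genes (55.1% of all genes), and that of clone 2 in 0 (49.7%).

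In a model of 4 groups, in which the spread comes from the 2 clones and each lone wild-type library is assumed to vary like them, limma called 0 of the 39 genes and 0% of all genes between clones and wild type under either siRNA. Under PRL1-siRNA 3 of the 39 and 1798 of all genes had an unadjusted p under 0.05, and the 3 were higher in the clones. They were DLGAP5 (0.39 ± 0.094), PLK1 (0.32 ± 0.096) and CCNB1 (0.28 ± 0.091), with adjusted p = 0.260, 0.295 and 0.322. Under control siRNA 1632 of all genes and, among the 39, DLGAP5 alone had an unadjusted p under 0.05 (0.32 ± 0.094, adjusted p = 0.326). Levels of DLGAP5 in clone 1 and clone 2 were 26.0 and 23.5 FPKM, against 18.7 FPKM in wild type, under PRL1-siRNA, and 29.9 and 31.5 FPKM, against 24.5 FPKM in wild type, under control siRNA. ANLN was at 77.5 and 59.1 FPKM in clone 1 and clone 2 and 54.7 FPKM in wild type under PRL1-siRNA, so its level differed more between the clones than between clone 2 and wild type. FOXM1 under PRL1-siRNA was below wild type in both clones, at 8.83 and 6.61 FPKM against 9.30 FPKM in wild type.

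**Figure D4:**
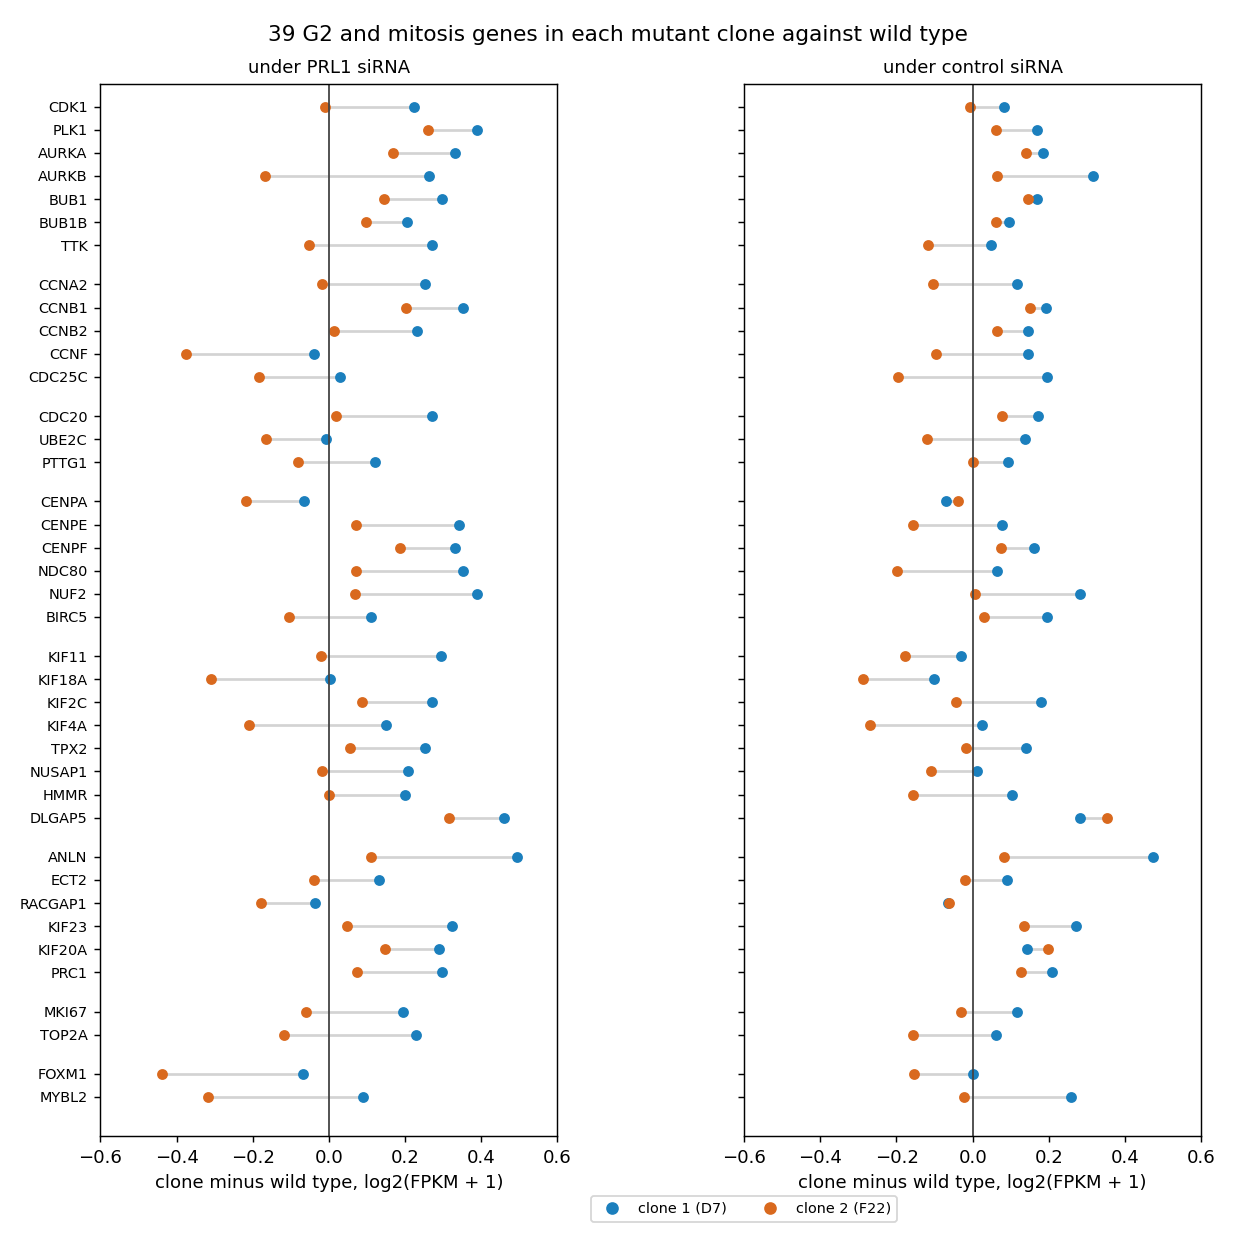
Difference in log2(FPKM + 1) between each clone and wild type (horizontal axis) for the 39 genes under PRL1 siRNA (left) and control siRNA (right), with 1 point per clone and a grey bar joining both clones; the vertical line at 0 is the wild-type library. Points of clone 1 lie mostly right of 0 (median 0.25 under PRL1 siRNA and 0.14 under control siRNA), and those of clone 2 on both sides of it.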

How the data were processed

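RNA of 6 MDCK libraries had been made into TruSeq stranded mRNA libraries, per the labels' protocols. The authors deposited FPKM values, 1 per symbol and library. HISAT2 (2.1.0), Cufflinks (2.2.1) and Cuffdiff are named, with no role, per the submitters' processing notes. The build, annotation and strand setting were not given in the sources used here. Overlapping or antisense genes may therefore share fragments, and no coordinates are printed.

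Values were tested as log2(FPKM + 1), which understates fold changes of low genes, with limma 3.58.1 in R 4.3.3 (moderated variances with an intensity trend). The 12125 genes that averaged 1 FPKM or more were kept, including all 39 described. The knockdown model held the line and the treatment (2 residual degrees of freedom, prior 3.58). Libraries are paired because they come from the same line; deviations of same-clone libraries from their group means correlated across genes (r = 0.595). Genotype and interaction used a model of 4 groups without a line term (2 residual degrees of freedom, prior 1.95). The interaction was also fitted with the line as a term (1 residual degree of freedom, prior 3.23), chosen after seeing the data. Comparisons of 1 library against 1 have no replicate check and no p-value. P-values were adjusted over all genes by the Benjamini-Hochberg method. No set test was made.

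Relative depth was taken from genes below 0.1 FPKM, as the shift at which the largest share of their ratios between libraries matched ratios of whole reads (33.4% to 36.4% matched within 0.01 on the log2 scale, against 6.63% to 7.21% on a shifted grid). No pair of libraries held identical values. The fits were tested on simulated data. Alternatives were another pseudocount (0.1), no filter, a mean of at least 5 FPKM, quantile and median-ratio scaling, no trend, no line term, and leaving out each line pair (for the genotype fits, each mutant library).

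Genes named in full were all mitotic kinases and, in each other role group, up to 3 called genes with the largest fold change. Of each other list, they were the 2 largest rises and 3 largest falls. KIF20A, which did not pass, was given in full outside this rule. Genes named for their differences between lines were chosen after their values were seen. Members and lists were chosen with earlier results of these data known. Promoter sequences were not analysed here.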

Additional observations from a re-analysis of the deposited data

How the results depend on the processing

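All 39 genes tested kept a fold change below 0 in every knockdown fit that included them (KIF18A was left out by the filter of 5 FPKM). Over all genes, falls outnumbered rises in the main fit (2632 against 2130), but not after median-ratio scaling (2303 against 2454). The count of the 39 that fell was 33 with a pseudocount of 0.1 (22% of all genes fell there) and 33 of 38 with the filter of 5 FPKM (27%). It was 31 after median-ratio scaling (19%) and without an intensity trend (20.5%), and 30 after quantile normalization (20%). Leaving out 1 line pair gave 29 without wild type (19%), 22 without clone 1 (7.92%) and 22 without clone 2 (10.9%). In all 3 of these fits 19 of the 33 kept their call, a share that was not counted over all genes. With no filter, 7 of the 39 and 19 of the wider list fell, beside 0 of the APC/C list, 4 of S phase, 2 of G1 and 2 of the DREAM and E2F list, and 728 falls and 451 rises among 27931 genes. Without the replicate block (no line term), 0 of the 39, 0 of the wider list and every other list, and 0 of all genes fell or rose, although the median stayed at -0.30 and 3407 genes had an unadjusted p under 0.05. The cause of these differences was not tested. Without 1 pair, all falls numbered 960 (without clone 1), 1318 (without clone 2) and 2298 (without wild type), all rises 749 to 1739 and falls in the wider list 32 to 48, in fits with 1 residual degree of freedom. The median of the 39 lay between -0.33 and -0.27 over the alternatives, and the median of all genes between -0.023 and 0.011. Between clones and wild type and in the interaction, 0 of the 39 passed under every alternative, the interaction with the line as a replicate block included. Small differences of the least abundant genes, such as KIF18A and CDC25C, are limited by a depth that is unknown.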
